A study of Mus musculus with 7 samples.

Results

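The genes described here are the cytosolic ribosomal protein genes, the genes for the protein part of the ribosome that translates nuclear messenger RNA. They were chosen by name, as every gene in the table whose mouse symbol is Rpl or Rps followed by a number (with an optional paralog suffix), Rplp0 to Rplp2, or Rpsa. Of 47643 gene rows in the table, 86 matched by name, 3 of these were annotated as pseudogenes and left out (Rpl6l, Rps12l1 and Rps4l), and 83 members remained. There were 49 members of the large subunit, 31 of the small subunit and 3 of the stalk. Ribosomal protein genes whose names lie outside that pattern, such as Rps3a1 and Fau, are given separately.

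A ribosome holds most of these proteins in about equal number, and cells keep their transcripts at coordinated levels. Most of the transcripts start with a run of pyrimidines (C or T in DNA letters), the terminal oligopyrimidine or TOP motif, through which the kinase mTOR and the RNA-binding protein Larp1 control their translation and stability. In tumours, ribosome production is known to follow growth signalling, including the transcription factor Myc.

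RNA was measured by 3′-end sequencing in 7 subcutaneous flank tumours, 1 library per tumour. Both groups were grown from cells that the labels call MTOs and list with the genotype sgPrkci/Prkcz, in which guide RNAs target both atypical protein kinase C genes. No tumour without that edit was analysed here, and the labels do not say whether the cells were 1 clone or a pool. The cells were injected with 30% Matrigel into C57BL/6 mice aged 7 weeks, and the tumours are listed at a mouse age of 13 weeks. Vehicle mice (n = 3, replicates 14, 16 and 33) received the carrier. PEGPH20 mice (n = 4, replicates 11, 12, 19 and 37) received 0.0375 mg/kg of PEGPH20, a pegylated hyaluronidase that digests the matrix polysaccharide hyaluronan. Dosing began on day 15 and was given 2 times a week for 3 weeks in both groups. The question of the comparison is how expression differed between PEGPH20 and vehicle tumours.

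The libraries held 4204388 to 4304108 reads with vehicle and 4582238 to 6703775 with PEGPH20, of which 10.97% to 12.28% were mitochondrial. The level of the 10 tumour epithelium markers, their mean log2(value + 1), lay between 9.21 and 9.40 in all 7 libraries, and none of the 10 was at 0 throughout. Single epithelium markers differed in both directions, 3 larger and 7 smaller with PEGPH20. Their log2 differences ran from -0.56 to 1.08, with a median of -0.26. An unadjusted limma p under 0.05 was reached by 3 of the larger and 3 of the smaller ones (7.58% and 4.58% of all genes). Across all genes limma called 0 of 17132 at an adjusted p under 0.05 (0%), the smallest adjusted p being 0.218, and 2083 genes reached an unadjusted p under 0.05. The edgeR test called 0 of 13079, where 1704 reached an unadjusted p under 0.05. DESeq2 called 77. The p-values measure the spread between these tumours. No member passed limma's threshold, so each difference below is a measured value and not a call.

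The start regions of 9 members are shown first, because the TOP motif lies there. They include some of the members described below. Each is the 80 bases from 50 before to 30 after an annotated start, on the transcript strand, 5′ to 3′, from RefSeq on GRCm38.p6. Capitals mark the longest unbroken run of C or T of at least 8 bases, and a line without capitals holds no such run.
Rpl38 (chr11:114668530-114668609, + strand): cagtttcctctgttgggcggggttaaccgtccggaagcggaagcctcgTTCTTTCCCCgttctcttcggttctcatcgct
Rpl14 (chr9:120571467-120571546, + strand): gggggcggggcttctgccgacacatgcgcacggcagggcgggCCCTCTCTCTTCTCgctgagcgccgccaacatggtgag
Rps25 (chr9:44407664-44407743, + strand): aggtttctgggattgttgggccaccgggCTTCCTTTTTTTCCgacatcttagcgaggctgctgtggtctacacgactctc
Rpl15 (chr14:18270957-18271036, - strand): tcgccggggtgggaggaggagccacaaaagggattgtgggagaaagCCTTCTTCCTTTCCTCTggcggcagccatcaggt
Rpl22 (chr4:152325676-152325755, + strand): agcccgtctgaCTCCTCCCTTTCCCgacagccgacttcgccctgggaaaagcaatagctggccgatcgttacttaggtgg
Rpl22l1 (chr3:28805458-28805537, + strand): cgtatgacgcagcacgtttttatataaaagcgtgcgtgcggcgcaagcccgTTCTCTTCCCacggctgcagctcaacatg
Rpl39l (chr16:10170178-10170257, + strand): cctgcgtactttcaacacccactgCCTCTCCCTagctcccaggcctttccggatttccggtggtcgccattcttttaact
Rpl12 (chr2:32961662-32961741, + strand): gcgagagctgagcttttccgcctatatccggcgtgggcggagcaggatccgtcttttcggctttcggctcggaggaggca
Rps28 (chr17:33824533-33824612, - strand): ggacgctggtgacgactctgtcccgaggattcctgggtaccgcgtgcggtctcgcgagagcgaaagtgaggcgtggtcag

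The run began 2 bases before the annotated start in Rpl38 and 4 before it in Rpl15. In Rpl22 it began 39 bases before the start. Of 63 members with a start region in the table, 40 (63.49%) held a run of at least 8 bases in at least 1 listed region, against 33.58% of 27025 genes. The letters CTTTCC, which can lie within such a run, occurred on the transcript strand in 14 members (22.22%) and in 4.492% of all genes. On both strands together they occurred in 16 members (25.4%) and in 8.363% of genes. The letters CGGAAG, a core of ETS-family binding sites whose reverse complement CTTCCG can overlap a run, occurred on the transcript strand in 13 members (20.63%) and in 5.18% of genes. On both strands together they occurred in 21 members (33.33%) and in 9.262% of genes. These matches are descriptions of the letters in this window. Members with a run had a median log2 difference of 0.25 between PEGPH20 and vehicle over the 40 tested, members without one 0.21 over 22, and members with no such region 0.20 over 20. The medians of the 3 classes thus lay between 0.20 and 0.25. A run was counted anywhere in the window, also wholly before the annotated start as in Rpl22, and runs under 8 bases were not. The classes therefore do not separate members with a TOP motif from members without one.

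Ribosomal protein transcripts took a larger part of 3 of the 4 PEGPH20 libraries than of any vehicle library. The members' share of all reads was 3.02%, 3.42% and 2.53% in vehicle tumours 14, 16 and 33. It was 3.69%, 3.50%, 3.27% and 4.27% in PEGPH20 tumours 11, 12, 19 and 37. Vehicle replicate 16 lay above PEGPH20 replicate 19, so the groups overlapped. The mean share was 2.99% ± 0.444 (SD, n = 3) with vehicle and 3.68% ± 0.426 (SD, n = 4) with PEGPH20, a difference of 0.694 percentage points and a ratio of 1.23. In bulk tumours, fewer cells of a type and less RNA per cell cannot be told apart. Reads in rows named as ribosomal protein pseudogenes came to 0.684 to 0.795 per 100 member reads, and with them added the difference was 0.700 percentage points. Gene models under other names that share sequence with members, such as Gm14056 with Rpl10, were not among the added rows.

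**Figure D1:**
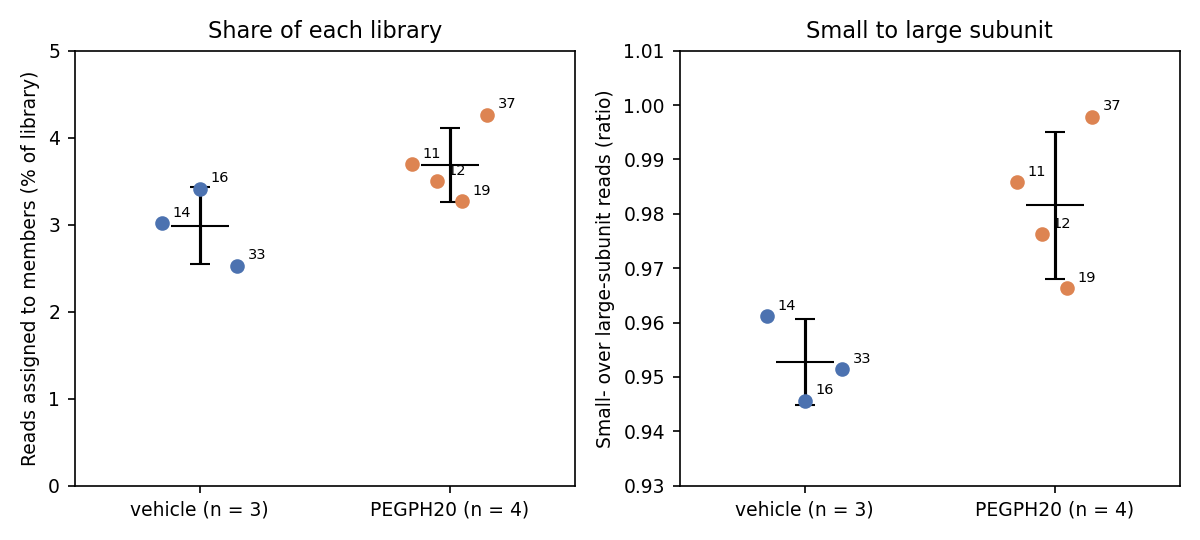
Left, percent of each library's reads assigned to the ribosomal protein members; right, reads of small-subunit members divided by reads of the other members, on an axis that does not start at 0. Points are tumours labelled by replicate, horizontal bars are group means and error bars are 1 SD; on the left vehicle replicate 16 (3.42%) lies above PEGPH20 replicate 19 (3.27%), and on the right the groups do not overlap.

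Of the 83 members, 82 were tested. Rpl10l, a retrogene known from the testis, had 0 reads in every library and was not. The mean log2 value was larger with PEGPH20 in 73 of the 82, against 54% of all tested genes. An unadjusted limma p under 0.05 was reached by 27 members with larger values under PEGPH20, where the background was 7.58% of all genes, and by 1 member, Rpl29, with smaller values, where it was 4.58%. The edgeR test gave 20 members higher (background 6.25%) and 1 lower (background 6.77%) at the same unadjusted threshold. DESeq2 called 1 member higher, Rps20 with an adjusted p of 0.0492, and 0 lower, where it called 0.407% of the 7864 genes with an adjusted p higher and 0.572% lower. At an unadjusted p under 0.05, DESeq2 had 23 members higher, with 2.70% of all genes, and 2 lower, with 3.38% of all genes.

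The members lay close together. Their median log2 difference was 0.23 and their quartiles 0.09 and 0.33, against a median of 0.03 and quartiles of -0.19 and 0.24 over all tested genes. The difference of 66 members was within 0.2 of the members' median, and no such count was made over all genes. The quartiles over all tested genes take in genes with few reads and were not matched to the members for read number. In 9 members every PEGPH20 library lay above every vehicle library, among them Rps20, Rpl38, Rps28, Rpl14, Rpl17, Rpl41, Rpl31 and Rpl26, where the background was 6.72% of all tested genes. In 1 member, Rpl29, every PEGPH20 library lay below, where the background was 4.45%.

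**Figure D2:**
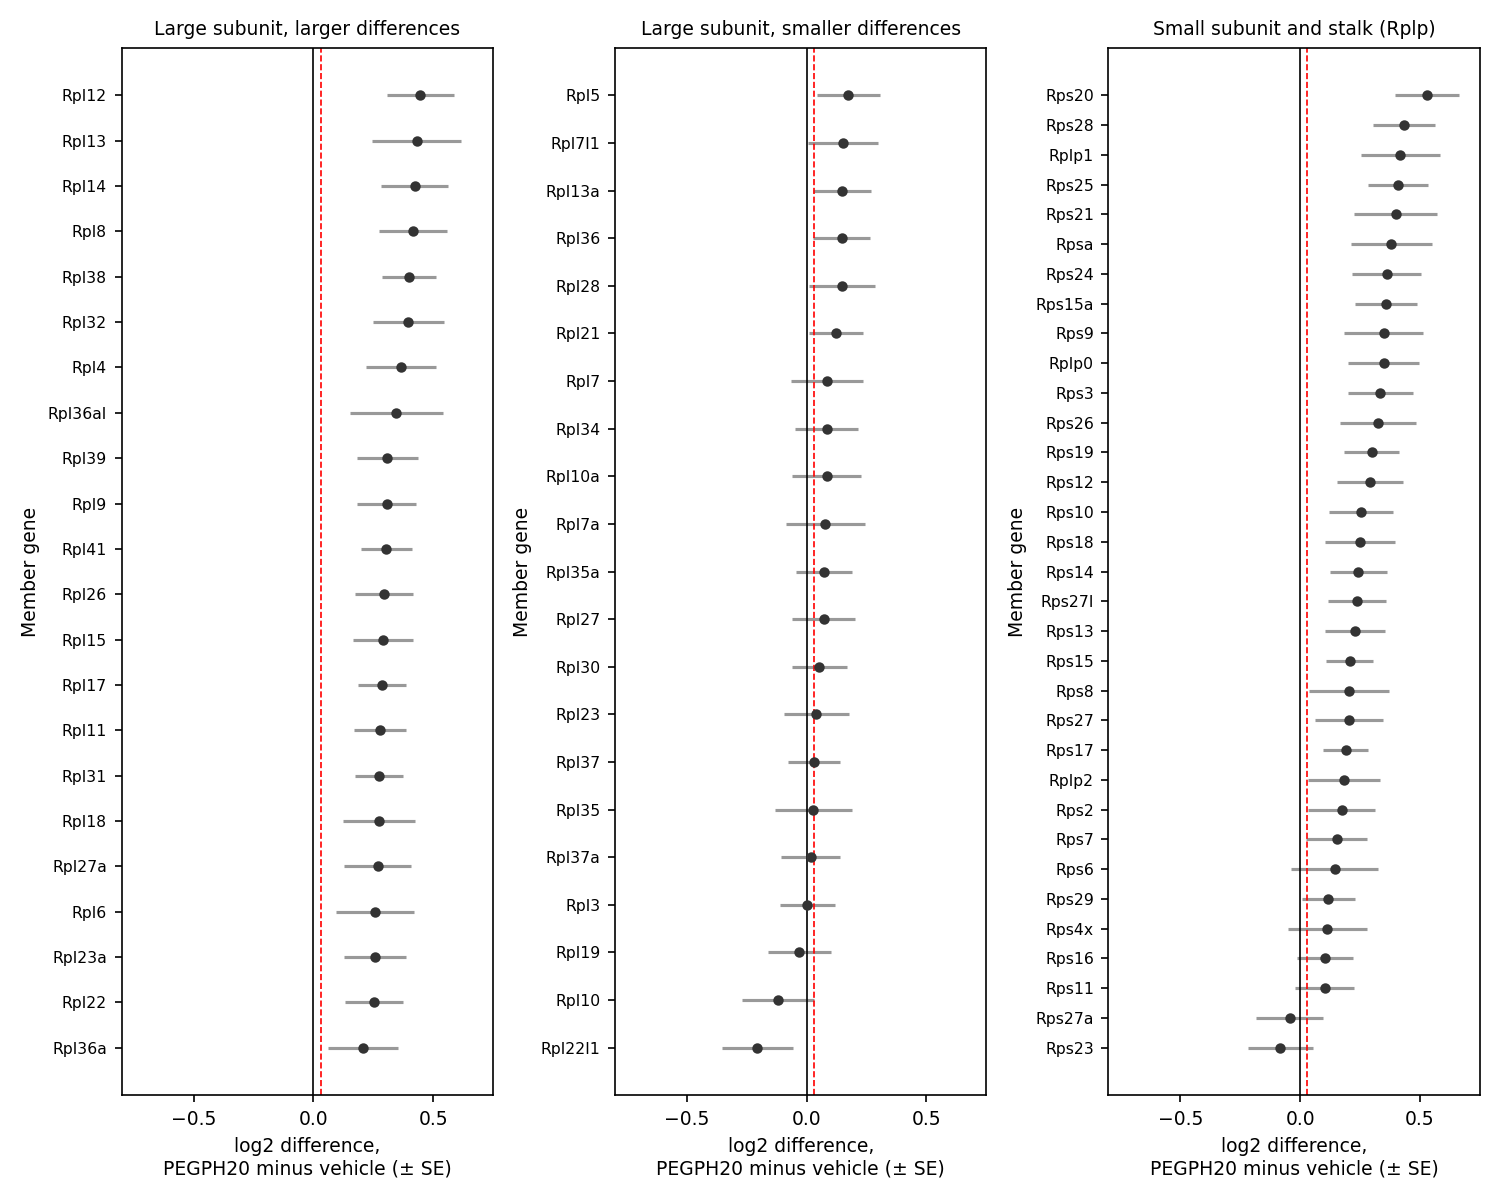
Log2 difference between PEGPH20 and vehicle (mean of 4 tumours minus mean of 3) for 76 of the 78 members with at least 700 reads (the other 2 are not drawn), with bars of 1 SE from limma. The black line is 0 and the dashed red line is the median of all tested genes, 0.03; the values run from -0.21 in Rpl22l1 to 0.53 in Rps20.

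Of all tested genes, 54% had larger values with PEGPH20, and 7.58% had larger values with an unadjusted p under 0.05. In the large subunit, which forms the peptide bonds, 41 of 48 tested members had larger values with PEGPH20, and the median log2 difference was 0.16. Those with larger values and an unadjusted p under 0.05 numbered 16, with differences from 0.27 to 0.45. They included Rpl4, Rpl8, Rpl9, Rpl11, Rpl12, Rpl13, Rpl14, Rpl15, Rpl17, Rpl26, Rpl31, Rpl32, Rpl38, Rpl39 and Rpl41. In the small subunit, which reads the message, 29 of 31 had larger values, with a median of 0.24. The 9 members under that p included Rps3, Rps15a, Rps19, Rps20, Rps21, Rps24, Rps25 and Rps28. In the stalk, which recruits the elongation factors, all 3 had larger values, with a median of 0.35.

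The ratio of small-subunit reads to the reads of all other members was 0.961, 0.946 and 0.952 in vehicle tumours 14, 16 and 33. With PEGPH20 it was 0.986, 0.976, 0.966 and 0.998 in replicates 11, 12, 19 and 37, so every PEGPH20 tumour lay above every vehicle tumour. The means were 0.953 ± 0.00788 and 0.982 ± 0.0135 (SD, n = 3 and 4). Rps20 alone carried 4.30% of all member reads, and without it the ratio was 0.887, 0.872 and 0.875 with vehicle, against 0.897, 0.882, 0.880 and 0.907 with PEGPH20. Without Rps20 the groups overlapped, since PEGPH20 replicates 12 and 19 then lay below vehicle replicate 14.

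Rps20 encodes a protein of the small-subunit head that is needed to mature the small ribosomal RNA. The gene (ENSMUSG00000028234) lies on the minus strand of GRCm38 chromosome 4, from 3831334 to 3835665. Its normalised read count was 4229, 4973 and 3697 in vehicle tumours 14, 16 and 33, against 6250, 6126, 5310 and 7084 in PEGPH20 tumours 11, 12, 19 and 37. All 4 PEGPH20 tumours were above all 3 vehicle tumours. The means were 4300 ± 641 and 6193 ± 726 (SD), a ratio of 1.44, with a log2 difference of 0.53 ± 0.13 (SE) and a limma adjusted p of 0.305. None of the 75-base stretches in the last 300 bases of its transcripts was shared with another annotated gene, so a read of the sequenced length from there points to Rps20 alone, although the gene model Gm24016 overlaps its exons on the same strand.

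Rps28 and Rps25 are also small-subunit proteins, and Rps25 is known as the one that several viral internal ribosome entry sites need. Rps28 read 1230, 1499 and 1088 normalised read counts with vehicle, against 1801, 1550, 1554 and 1942 with PEGPH20. The groups did not overlap, although vehicle replicate 16 was near the 2 lowest PEGPH20 tumours, and the log2 difference was 0.43 ± 0.13 (limma adjusted p 0.325). Rps25 read 1660, 1888 and 1381 with vehicle, against 2274, 2130, 1884 and 2403 with PEGPH20. Here vehicle replicate 16 and PEGPH20 replicate 19 crossed by a few counts, and the difference was 0.41 ± 0.13 (limma adjusted p 0.332). Antisense gene models overlap exons of both, as they do in 19 members, and their values are uncertain, because the sources used here do not state whether the counting used strand.

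Among large-subunit members, Rpl38 is known from mouse embryos, where its loss changes the translation of Hox transcripts. It read 812, 882 and 685 normalised read counts with vehicle, against 976, 1080, 948 and 1170 with PEGPH20. Every PEGPH20 tumour was above every vehicle tumour, with a log2 difference of 0.40 ± 0.11 (limma adjusted p 0.313). Of its 3′-end stretches 52.3% occur in 3 other genes, so the Rpl38 value is uncertain.

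Rpl14, another large-subunit protein, read 2921, 3554 and 2339 normalised read counts with vehicle, against 4242, 3705, 3595 and 4026 with PEGPH20. The groups did not overlap, with vehicle replicate 16 just under the lowest PEGPH20 tumour and a log2 difference of 0.42 ± 0.14 (limma adjusted p 0.344). Rpl12, which sits at the base of the stalk, read 1227, 1499 and 1083 with vehicle, against 1617, 1721, 1496 and 2080 with PEGPH20. Vehicle replicate 16 and PEGPH20 replicate 19 had nearly the same Rpl12 value, and the difference was 0.45 ± 0.14 (limma adjusted p 0.337). An antisense gene model, Lrsam1, overlaps exons of Rpl12, so its value is uncertain. Rpl8, which lies near the peptidyl transferase centre, read 1452, 1881 and 1323 with vehicle, against 2032, 1885, 1861 and 2454 with PEGPH20. Its groups crossed at vehicle replicate 16, and the difference was 0.41 ± 0.14 (limma adjusted p 0.351). These members were named for having the smallest p, in these same tumours, among those with larger values under PEGPH20.

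Of the stalk proteins, those of Rplp1 and Rplp2 stand in several copies on the large subunit. Rplp0, the anchor of the stalk, read 1860, 2066 and 1396 normalised read counts with vehicle, against 2349, 2163, 1908 and 2546 with PEGPH20. Rplp1 read 2287, 3149 and 2109 with vehicle, against 3720, 2917, 2829 and 3918 with PEGPH20. Rplp2 read 639, 835 and 562 with vehicle, against 847, 750, 634 and 828 with PEGPH20. All 3 were lowest in vehicle replicate 33, and in each of them vehicle replicate 16 lay above at least 1 PEGPH20 tumour. Their log2 differences were 0.35 ± 0.15, 0.42 ± 0.17 and 0.18 ± 0.15, with limma adjusted p of 0.400, 0.387 and 0.629.

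The 7 members named for roles beyond the ribosome had log2 differences from -0.04 to 0.38. Rpl5, Rpl11 and Rpl23 bind and restrain Mdm2, the ubiquitin ligase of p53, when free of ribosomes. Rpl11 read 1336, 1621 and 1262 normalised read counts with vehicle, against 1702, 1640, 1585 and 1867 with PEGPH20, and the log2 difference was 0.28 ± 0.11 (overlap at vehicle replicate 16). Rpl5 read 653, 709 and 482 with vehicle, against 693, 681, 641 and 724 with PEGPH20 (0.17 ± 0.13). Rpl23 read 3430, 3571 and 2510, against 3248, 3230, 2891 and 3550 (0.04 ± 0.13). In all 3 genes vehicle replicate 33 was the lowest tumour and the other vehicle tumours lay among or above those given PEGPH20, with the exception of replicate 14 in Rpl11.

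Rps6 is the substrate of the S6 kinases. It read 97.6, 116 and 70.3 normalised read counts with vehicle, against 110, 86.8, 99.4 and 116 with PEGPH20 (0.14 ± 0.18), and 81.4% of its 3′-end stretches are shared. Rpsa, also called the laminin receptor, read 823, 1189 and 723, against 1399, 1045, 1070 and 1160 (0.38 ± 0.17). Rps19, mutated in Diamond-Blackfan anaemia in humans, read 1218, 1411 and 1100, against 1698, 1372, 1417 and 1622 (0.30 ± 0.12). Vehicle replicate 16 overlapped the PEGPH20 tumours in each of these. Rps27a, made as a fusion with ubiquitin, read 2680, 2533 and 1934 with vehicle, against 2304, 2334, 1938 and 2630 with PEGPH20, with a difference of -0.04 ± 0.14.

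Smaller values with PEGPH20 were found in 9 members, namely Rpl29, Rpl39l, Rpl22l1, Rpl24, Rpl3l, Rpl10, Rpl19, Rps23 and Rps27a. Rpl29, a large-subunit protein also described as a heparin-binding protein, read 44.5, 37.7 and 32.97 normalised read counts with vehicle, against 21.5, 26.9, 25.4 and 31.4 with PEGPH20. All PEGPH20 tumours lay below all vehicle tumours, with a log2 difference of -0.53 ± 0.20 (limma adjusted p 0.374). The Rpl29 value rests on 284 reads in all, and 52.1% of the 75-base stretches at its 3′ end also occur in 43 other genes, so it is uncertain. Rpl24 had only 18 reads, with 79.2% of its stretches shared, and differed by -0.45 ± 0.51. Rpl10, Rpl19 and Rps23 differed by -0.12 ± 0.15, -0.03 ± 0.13 and -0.08 ± 0.14, all within 1 SE of 0.

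Several members have a paralog that can take their place in the ribosome, and the ratio within a pair does not depend on how libraries are scaled. In mouse, the Rpl22 protein is known to repress the transcript of its paralog Rpl22l1. Rpl22 read 1349, 1597 and 1242 normalised read counts with vehicle, against 1754, 1498, 1509 and 1893 with PEGPH20, and the log2 difference was 0.25 ± 0.12, with overlap (limma adjusted p 0.435). Rpl22l1 read 242, 268 and 174 with vehicle, against 194, 198, 180 and 209 with PEGPH20, a difference of -0.21 ± 0.15 with overlap (limma adjusted p 0.580). The pair thus differed in opposite directions, neither past the threshold. Per 100 counts of Rpl22, Rpl22l1 stood at 17.97, 16.8 and 14.04 in vehicle tumours 14, 16 and 33, against 11.05, 13.2, 11.9 and 11.03 in PEGPH20 tumours 11, 12, 19 and 37. Every PEGPH20 tumour had a lower ratio than every vehicle tumour, with means of 16.3 ± 2.02 and 11.8 ± 1.02 (SD, n = 3 and 4). The exact permutation test, two-sided, gave p = 0.0571, the smallest that this test can give with 3 and 4 tumours, and 0.343 after Benjamini-Hochberg adjustment over the 6 pairs tested. Of the Rpl22l1 3′-end stretches 56.6% occur in 2 other genes, and an antisense gene model, Gm33051, overlaps its exons.

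In the other pairs the ratio overlapped between the groups. Rpl36a read 1242, 1431 and 940 normalised read counts with vehicle, against 1342, 1374, 1216 and 1577 with PEGPH20 (0.21 ± 0.15), and Rpl36al read 357, 450 and 254, against 443, 389, 386 and 555 (0.35 ± 0.19). Rps27 read 673, 821 and 601, against 830, 708, 716 and 964 (0.20 ± 0.14), and Rps27l read 524, 665 and 523, against 690, 634, 599 and 767 (0.24 ± 0.12). Rpl7 read 2226, 2722 and 1822, against 2385, 2305, 2030 and 2785 (0.08 ± 0.15), and Rpl7l1 read 130, 182 and 154, against 177, 163, 148 and 201 (0.15 ± 0.15). In all 6 genes vehicle replicate 16 lay above at least 1 PEGPH20 tumour. Per 100 counts of the partner, Rpl36al stood at 29.1 ± 2.23 of Rpl36a with vehicle and 32.1 ± 2.88 with PEGPH20. Rps27l stood at 82.0 ± 4.65 and 84.0 ± 4.15 of Rps27, and Rpl7l1 at 7.00 ± 1.35 and 7.25 ± 0.160 of Rpl7. Their exact permutation p were 0.229, 0.571 and 0.629, and those of Rpl39l and Rpl3l were 0.286 and 0.914. The whole 3′ end of Rpl36a (100% of its stretches) occurs in another gene as well, so the Rpl36a value is uncertain.

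**Figure D3:**
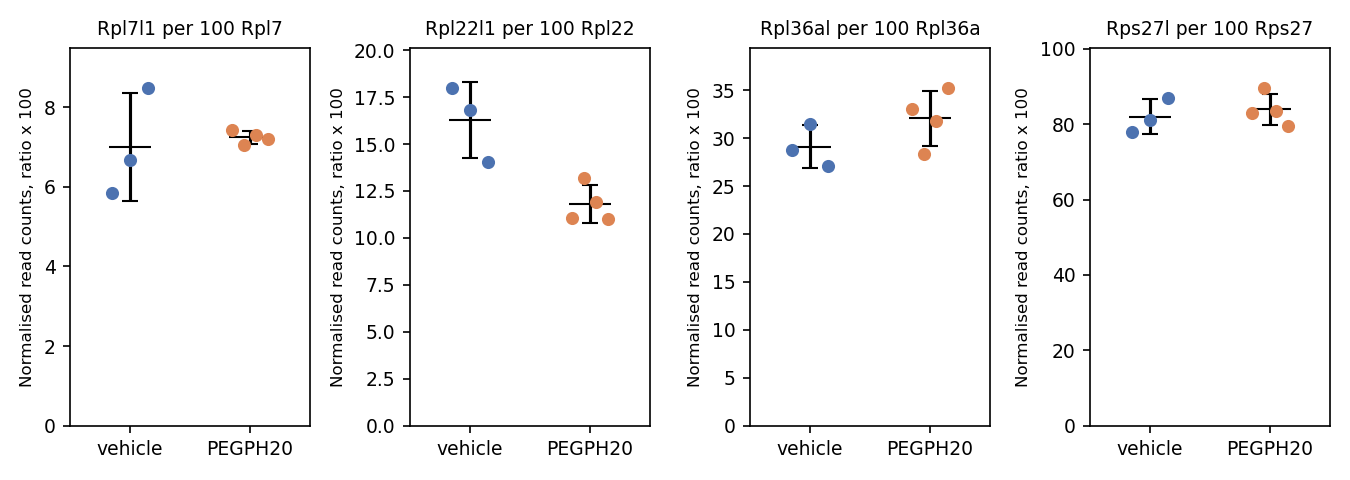
Normalised read count of a paralog per 100 of its partner in the 3 vehicle and 4 PEGPH20 tumours, for 4 pairs with at least 700 reads of each gene, with means (horizontal bars) and 1 SD. Only the Rpl22l1 panel shows no overlap, with 14.04 to 17.97 for vehicle and 11.03 to 13.2 for PEGPH20.

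The paralogs of restricted tissues were near the limit of detection. Rpl39l, known from testis and some tumours, read 19.2, 1.84 and 16.5 normalised read counts with vehicle, against 4.14, 2.07, 7.18 and 2.92 with PEGPH20. Vehicle replicates 14 and 33 were high and replicate 16 was the lowest of all 7, on 68 reads in total, with a log2 difference of -1.08 ± 0.67. Its partner Rpl39 read 1173, 1482 and 1109, against 1685, 1492, 1335 and 1685, a difference of 0.31 ± 0.13 with overlap. Rpl3l, the form of striated muscle, read 0.872, 16.5 and 0.868 with vehicle, against 4.97, 2.76, 1.10 and 2.19 with PEGPH20, on 35 reads. The high tumour, vehicle replicate 16, also had the highest level of 12 skeletal muscle markers, 9.08 against 1.38 to 6.80 in the other libraries. Its partner Rpl3 read 632, 782 and 608, against 621, 677, 634 and 761, with group means of 674 ± 94.3 and 673 ± 63.0 (SD). Rpl10, the partner of Rpl10l, read 275, 313 and 206, against 252, 229, 213 and 272 (-0.12 ± 0.15). Rps4x, the X-linked small-subunit member, read 263, 336 and 198, against 304, 286, 246 and 293 (0.11 ± 0.17). In Rpl3, Rpl10 and Rps4x vehicle replicate 16 was the highest tumour.

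Between tumours the members moved together. Of the 82 tested members, 73 were lowest in vehicle replicate 33, the lowest library of 22.2% of all tested genes. PEGPH20 replicate 37 was the highest library for 54 members and for 16.02% of all tested genes. Vehicle replicate 16 was the highest for 16 members and for 19.5% of genes. Over the 78 members with at least 700 reads, the median coefficient of variation was 16.9% among vehicle tumours and 11.1% among PEGPH20 tumours. Over the 7186 genes with that many reads it was 11.9% and 9.98%. The wider spread of the vehicle group came with 1 low tumour, replicate 33, and 1 high one, replicate 16.

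**Figure D4:**
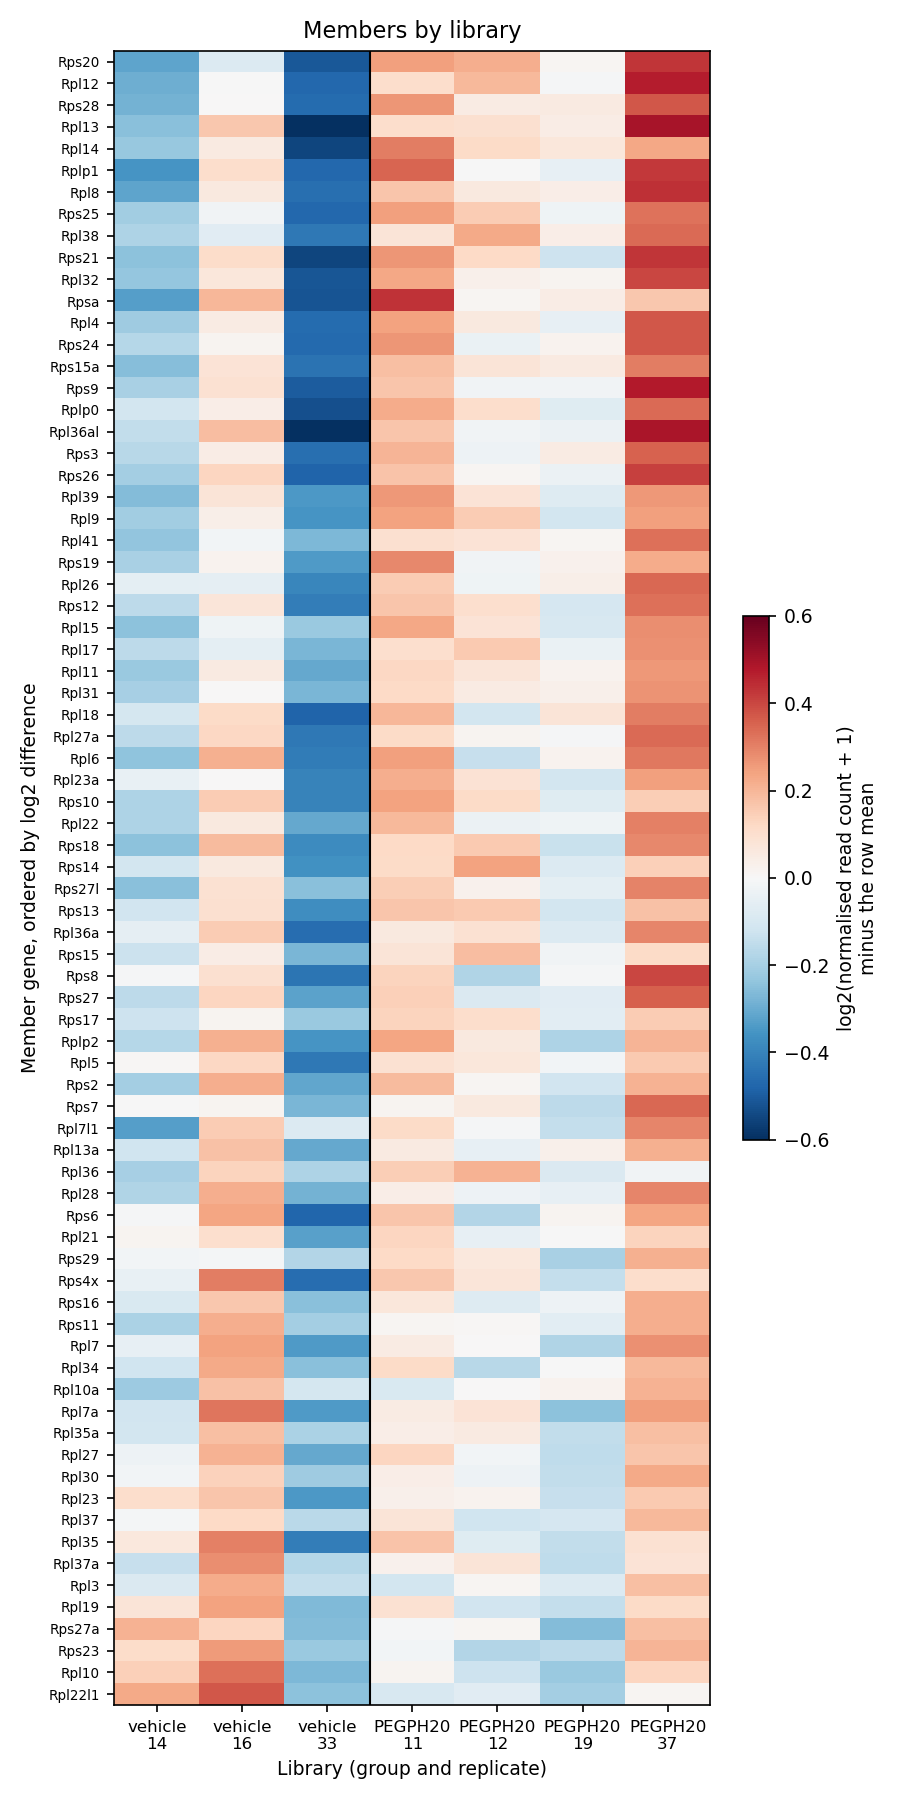
Log2(normalised read count + 1) of 76 of the 78 members with at least 700 reads (the other 2 are not drawn) minus that gene's mean over the 7 tumours, from blue (below the mean) to red (above), with genes ordered by the log2 difference between PEGPH20 and vehicle. Vehicle replicate 33 is blue in nearly every member, PEGPH20 replicate 37 red in most, and vehicle replicate 16 runs from near the mean at the top to red at the bottom.

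Single tumours therefore set how many members passed an unadjusted p of 0.05. Without vehicle replicate 33 the limma count of higher members was 6 in place of 27 (4.91% of all tested genes in that fit), the median log2 difference was 0.13 in place of 0.23, and 59 members had larger values. Without vehicle replicate 16 the count was 53 (13.2% of all tested genes) and the median 0.34. Without vehicle replicate 14 it was 9 (5.20% of all tested genes), without PEGPH20 replicate 37 it was 10 (5.31%), and without PEGPH20 replicate 11 it was 13 (4.86%). The median stayed above 0 in each of these fits.

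Fibroblast markers ran the other way across the tumours. The level of the 10 markers (Col1a1, Col1a2, Col3a1, Dcn, Lum, Pdgfra, Pdgfrb, Fap, Thy1 and Postn) was 9.07, 8.74 and 9.93 in vehicle tumours 14, 16 and 33, against 7.80, 8.70, 8.89 and 7.97 in PEGPH20 tumours 11, 12, 19 and 37. The members' level in the same order was 9.64, 9.88 and 9.40 with vehicle, against 9.89, 9.75, 9.67 and 9.99 with PEGPH20. The tumour with the highest fibroblast level, vehicle replicate 33, had the lowest ribosomal protein level, and the 2 with the lowest fibroblast level, PEGPH20 replicates 11 and 37, had the highest. All 10 fibroblast markers had smaller values with PEGPH20, with a median log2 difference of -0.86, and none was at 0 throughout. Of these, 7 had an unadjusted limma p under 0.05, against 4.58% of all tested genes lower at that p. With the fibroblast level as a covariate in limma, a fit chosen after seeing the data, the members' median log2 difference was -0.03, 34 of 82 had larger values, and 0 had an unadjusted p under 0.05 with larger values (4.00% of all genes in that fit) and 7 with smaller ones (3.02%). The fibroblast level itself differed between the groups of these same tumours, so treatment and fibroblast content cannot be told apart here.

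**Figure D5:**
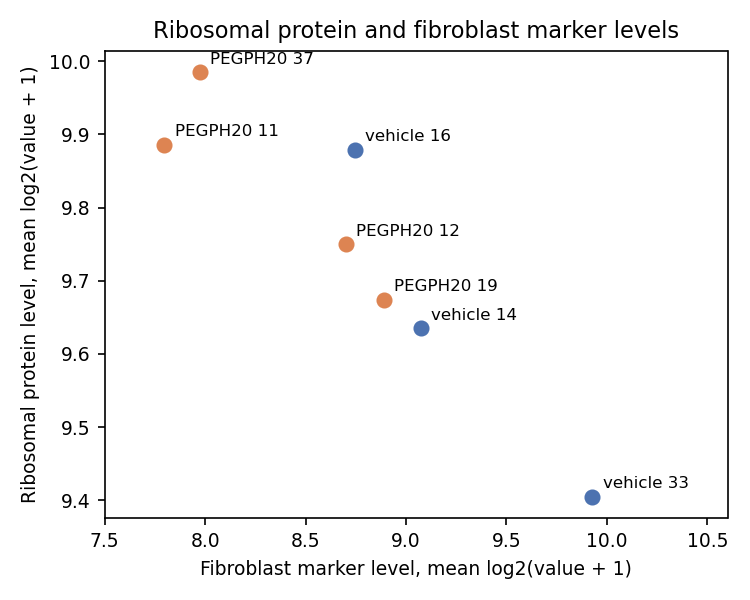
Mean log2(value + 1) of the ribosomal protein members against that of the 10 fibroblast markers, 1 point per tumour, blue for vehicle and orange for PEGPH20, on axes that do not start at 0. Vehicle replicate 33 is at the lower right (9.93 and 9.40) and PEGPH20 replicates 11 and 37 at the upper left.

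Other cell type markers also differed between the groups or between single tumours. All 10 T cell markers had larger values with PEGPH20 (54% of all tested genes), with a median log2 difference of 0.51. At an unadjusted limma p under 0.05, 1 of them was higher, near the 7.58% of all tested genes. Smaller values were found in 9 of 10 endothelial markers (median -0.29), 1 of them under that p, near the 4.58% of all tested genes. Of 5 tested adipocyte markers 4 had larger values (median 1.28), 2 of them under that p (7.58% of all tested genes). All 12 skeletal muscle markers had smaller values with PEGPH20, 0 of them at an unadjusted limma p under 0.05. The skeletal muscle level was highest in vehicle replicate 16 (9.08), PEGPH20 replicate 11 (6.80) and PEGPH20 replicate 37 (5.33), which were also the 3 tumours with the highest ribosomal protein level. Without these 3, a fit chosen after seeing the data, the members' median log2 difference was 0.25, against 0.06 over all tested genes. In that fit 28 members were higher at an unadjusted p under 0.05, as were 7.36% of all tested genes. With 2 tumours left in each group, 52 members then had no overlap and larger values, as did 27.6% of all tested genes. Keratinocyte markers were at 6.31 in vehicle replicate 14 and at 2.23 to 3.51 in the other libraries. The level of the 6 tested B and plasma cell markers ran from 1.75 in vehicle replicate 14 to 6.97 in PEGPH20 replicate 11. The part of T cell, endothelial, adipocyte, keratinocyte, and B and plasma cell content in the members' values was not tested.

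Ribosomal protein genes have many processed copies in the genome, and reads can be divided among them. Over the members, a median of 39.6% of the 75-base stretches at the 3′ end was shared with another annotated gene, and 15 members shared none. Members with larger values and such sharing included Rpl11 (50%), Rpl17 (51.5%), Rplp1 (52.2%), Rpl38 (52.3%) and Rpl26 (61.4%). Their values are uncertain for the same reason as that of Rpl29. Among the 21 tested members with under 10% shared, 18 had larger values with PEGPH20 (54% of all tested genes). Of these, 9 had an unadjusted p under 0.05 (7.58% of all tested genes), and the median log2 difference over the 21 was 0.27. Among the 61 with 10% or more shared, these were 55, 18 and 0.20. In the 63 tested members with no antisense gene across their exons, 56 had larger values and the median was 0.23.

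Outside the name pattern, Fau, a ubiquitin-like fusion of a small-subunit protein, had a normalised read count of 626 ± 6.04 under vehicle, against 676 ± 61.8 under PEGPH20 (SD), and the log2 difference was 0.11 ± 0.09 (SE). Rps3a1, a small-subunit gene, had 529 ± 88.7 and 531 ± 48.5 in the same order, with a difference of 0.01 ± 0.13. The groups overlapped in both genes.

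Other genes whose transcripts carry the TOP motif showed part of the pattern. Of 16 on the list of elongation factors and other TOP transcripts, 12 had larger values with PEGPH20 (54% of all tested genes). At an unadjusted limma p under 0.05, 5 were higher (7.58% of all tested genes) and 1 lower (4.58%). The median log2 difference of the list was 0.16. Eef1a1, which brings aminoacyl-tRNA to the ribosome, read 1852, 2174 and 1667 with vehicle, against 3102, 2613, 2287 and 2806 with PEGPH20, without overlap (0.51 ± 0.13). Eef2, the translocase, read 3042 ± 351 and 4114 ± 508, also without overlap (0.43 ± 0.12). Rack1, a scaffold named for its place on the small subunit and not for its p, read 3529 ± 523 and 4494 ± 560 with overlap (0.35 ± 0.13). Their limma adjusted p were 0.305, 0.313 and 0.374.

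The 24 initiation factors had 19 larger values (54% of all tested genes) and a median log2 difference of 0.10. At an unadjusted limma p under 0.05, 5 were higher and 2 lower, against 7.58% and 4.58% of all tested genes. Eif2s2, a subunit of the factor that carries the initiator tRNA, differed by 0.28 ± 0.09, and the helicase gene Eif4a2 by -0.50 ± 0.17. Ribosomal protein chaperones and import receptors had 9 of 15 larger, near the 54% of all tested genes, and a median of 0.08. At that p 0 were higher and 1 lower (7.58% and 4.58% of all tested genes). In that list Aamp, whose yeast counterpart is the chaperone of Rpl10, was the lower one (-0.25 ± 0.10), and Rpf2, an assembly factor of the 5S particle, differed by 0.24 ± 0.11.

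Lists of genes that make ribosomal RNA had medians above that of all tested genes, 0.03. RNA polymerase I and its factors had 13 of 14 larger values (54% of all tested genes) and a median log2 difference of 0.13. An unadjusted limma p under 0.05 was reached by 1 of 14, Taf1d (0.30 ± 0.11), close to the 7.58% of all genes. Polr1e had a difference of 0.44 ± 0.20. The ribosomal RNA processing list had 19 of 20 larger, 8 of them under that p (54% and 7.58% of all tested genes), and a median of 0.26. Nol6, of the small-subunit processome, read 43.9 ± 8.97 and 67.3 ± 8.45 (0.62 ± 0.18), and Dkc1, the pseudouridine synthase, 532 ± 139 and 827 ± 166 (0.64 ± 0.19). The groups did not overlap in either gene, and limma adjusted p were 0.313 and 0.315.

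Among 18 regulators of ribosomal protein expression, 11 had larger values, near the 54% of all tested genes, with a median log2 difference of 0.06. At an unadjusted limma p under 0.05, 2 were higher, near the 7.58% of all tested genes, and 0 were lower (4.58%). Those 2 were Larp1, which binds the TOP motif, and Mtor. Larp1 read 554, 562 and 414 with vehicle, against 655, 697, 640 and 769 with PEGPH20, without overlap (0.45 ± 0.12, limma adjusted p 0.313). Mtor read 171, 156 and 184 with vehicle, against 191, 232, 205 and 246 with PEGPH20, also without overlap (0.35 ± 0.12, limma adjusted p 0.350). Myc read 152, 188 and 104 with vehicle, against 178, 132, 142 and 193 with PEGPH20, with overlap (0.15 ± 0.21). These are transcript levels and do not measure kinase or transcription factor activity. Of 10 ribosome rescue and recycling genes, 7 had larger values (54% of all tested genes), with a median of 0.02. The recycling factor Abce1 alone was higher at an unadjusted limma p under 0.05 (0.27 ± 0.11), 1 of 10 and near the 7.58% of all tested genes.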

How the data were processed

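Expression was measured in 7 tumours (3 vehicle, 4 PEGPH20), each 1 library made from 200 ng of RNA with a 3′ mRNA kit (QuantSeq FWD) and read from a single end for 75 nt, per the labels' protocols. Per the submitters' processing notes, the genome build was GRCm38. The aligner, the counter, strand use and any collapse of molecular identifiers are not given in the sources used here. Per gene, the authors deposited 1 signal value per library, called the normalised read count here. Dividing a library by its smallest value above 0 gave whole numbers for 100% of its values (tolerance 0.01), so the deposited signal is a read count divided by 1 size factor, and whole reads were recovered. All 7 columns were mapped by their names.

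The members and lists were chosen with earlier results of these data known. Symbols matched 47224 of 47643 identifiers, and coordinates and transcripts came from the GENCODE M21 annotation of the same build. Differences were tested with limma 3.58.1 (R 4.3.3) on log2(value + 1) with an intensity trend over the 17132 genes whose mean value reached 1, treatment as the only term, and Benjamini-Hochberg adjustment over all of them (threshold 0.05). This scale understates differences of genes with low values. Alternatives were other scalings, pseudocounts and filters, edgeR 4.0.16 on the recovered reads (0 genes called), DESeq2 1.42.0, voom, each library left out, and 2 fits added after seeing the data: fibroblast level as a covariate, and no library among the 3 highest in muscle markers. The limma and edgeR fits were tested on simulated data, and the DESeq2, voom and covariate fits were not. List levels are averages of log2(value + 1) over the tested genes of a list. Ratios of paralogs were compared by exact permutation of the tumours (scipy 1.17.1), on log2 of (paralog value + 1) over (partner value + 1). Unlike the plain ratio, this measure depends slightly on scaling. The added 1 also damps it for paralogs with few reads, such as Rpl39l and Rpl3l.

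Named members were the 8 with the smallest p among those higher with PEGPH20 and the 4 among those lower, the stalk and paralog pairs, 7 members picked for roles beyond the ribosome, Rack1, and up to 2 genes of smallest p per other translation list. Some genes are not reported here by name, although the counts include them. Myc and the members without overlap were named beside these after their values were seen, and Rpl15 was added for its start region. Sharing of 3′ ends was counted over 75-base stretches of the last 300 bases of each annotated transcript. Start regions came from RefSeq on GRCm38.p6.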

Additional observations from a re-analysis of the deposited data

How the results depend on the processing

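No paired analysis was possible because the groups share no replicate numbers. The number of genes called was 0 in limma under each scaling, pseudocount and filter run, 0 in the single edgeR and voom fits, 77 with DESeq2 and 0 to 3 without 1 tumour. The members' median log2 difference was 0.19 to 0.26 under the 5 other scalings (all-gene median -0.01 to 0.06) and 0.13 to 0.34 without 1 tumour. It was -0.029 with the fibroblast covariate, where 0 members were higher (4.00% of all genes) and 7 lower (3.02%) at an unadjusted p under 0.05. At that p, without 1 tumour, 6 to 53 were higher (4.86% to 13.2% of all genes) and 0 to 2 lower (2.80% to 7.11%). DESeq2 had 2 lower (3.38% of all genes). Members without overlap and higher numbered 19 with the library total (8.73% of all genes) and 9 to 51 without 1 tumour (8.65% to 19.1%). Those lower numbered 1 to 4 without 1 tumour (5.53% to 11.4% of all genes). Without the 3 tumours highest in muscle markers, 52 were higher (27.6% of all genes) and 2 lower (16.4%). Of all genes at an unadjusted p under 0.05, 62.3% were higher, but 50.4% with DESeq2 size factors, 54.4% with TMM, 49.3% with upper quartiles, 72.3% with the library total, 48.0% in edgeR, 47.0% in voom and 44.4% in DESeq2. Named members near 0 changed sign. Rpl3 was at -0.032 with DESeq2 size factors and in DESeq2, -0.024 with TMM, -0.022 with TMM without the members, -0.038 with upper quartiles, -0.033 in edgeR and -0.018 in voom. Rpl23 was at -0.000547 with upper quartiles, -0.0068 in edgeR, -0.0061 in DESeq2 and -0.020 in voom, and Rpl3l at 0.0073 with a pseudocount of 0.1 and 0.59 without the muscle-rich tumours. Without 1 tumour the range was -0.067 to 0.11 for Rpl3, -0.71 to 0.91 for Rpl3l, -0.060 to 0.23 for Rpl7, -0.29 to 0.012 for Rpl10, -0.081 to 0.30 for Rps4x, -0.052 to 0.30 for Rps6, -0.12 to 0.13 for Rpl23 and -0.19 to 0.048 for Rps27a. With the fibroblast covariate the difference was -0.13 for Rpl3, -0.24 for Rpl7, -0.034 for Rpl7l1, -0.089 for Rpl36a, -0.10 for Rpl36al, -0.25 for Rps4x, -0.098 for Rps27, -0.16 for Rplp2, -0.24 for Rps6, -0.080 for Rpl5 and -0.23 for Rpl23. The cause of these shifts was not tested.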
